A study of Rattus norvegicus with 8 samples.

Results

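The genes examined here make, recycle and consume nicotinamide adenine dinucleotide (NAD), and several of them set the pace at which a cut axon falls apart. The list holds 10 genes, namely Nampt, Nmrk1, Naprt, Nmnat1, Nmnat2, Nmnat3, Sarm1, Cd38, Bst1 and Parp1, out of 32545 genes in the deposited table. They were selected by gene symbol alone, each matched 1 row, and all 10 passed the filter on low values (at least 10 normalized read counts in at least 2 libraries) together with 16478 genes in all. The list was drawn up with the values of every group already known, so an adjusted p-value given below places a gene within the fit to all tested genes and is not independent evidence for having picked it. Nampt in particular stood out in the NC PNAs when it was picked, so its comparisons with that group are given with no p-value.

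The libraries came from bulk RNA of sciatic nerve tissue of outbred female Sprague Dawley rats aged 3 to 6 months. PEG is the group of 3 animals with a peripheral nerve allograft (PNA) whose cut axon ends were joined by PEG-fusion, in which polyethylene glycol seals the severed membranes to each other. NC is the negative control group of 3 animals, whose grafts received the same surgery and solutions but no polyethylene glycol. Grafts were taken at day 14 after the operation, from donors that were not tissue matched to the hosts, and no host was immunosuppressed. Unop is the group of 2 animals with unoperated nerves. A graft holds the donor's resident cells together with whatever cells of the host have entered it, and these were not separated.

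In mammalian cells, most NAD is rebuilt from nicotinamide. Nampt turns nicotinamide into nicotinamide mononucleotide, and the enzymes Nmnat1 (nucleus), Nmnat2 (Golgi and axon) and Nmnat3 (mitochondria) complete NAD from it. Nmnat2 is short-lived and must be shipped down the axon without pause. When a nerve is cut, Nmnat2 runs out in the distal stump, nicotinamide mononucleotide accumulates, and the NAD hydrolase Sarm1 is switched on and destroys the axon's NAD, which is the core of Wallerian degeneration. Cd38 and Bst1 are NAD hydrolases of the cell surface that are well known from immune cells, and Parp1 spends NAD on ADP-ribose chains at broken DNA.

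Depth ranged from 32472925 to 39959620 reads on genes per library. Normalized read counts are not corrected for gene length, so levels are compared between groups for one gene and not between genes. Of the Schwann cell markers, Sox10 ranged from 3864 to 4257 normalized read counts in Unop, 2491 to 2686 in PEG and 1196 to 1792 in NC. S100b ranged from 153431 to 167369 in Unop, 16280 to 16606 in PEG and 4875 to 7649 in NC. Erbb3 ranged from 6769 to 9088 in Unop, 8998 to 10146 in PEG and 5653 to 6409 in NC, with PEG and Unop overlapping. The 6 macrophage markers summed to 10843 to 14528 in Unop, 55956 to 63498 in PEG and 69450 to 81539 in NC. The 5 T cell markers ranged from 136 to 276 in Unop, 1274 to 3709 in PEG and 14774 to 27268 in NC, and none of these macrophage or T cell markers was at 0 in any library. Skeletal muscle markers (Acta1, Ckm and Tnnt3) set 2 NC libraries apart, at 345240 in NC replicate 1 and 127767 in NC replicate 3, against 1984 to 18459 in the other 6 libraries. The part of these cell types in the results below was not tested, and in bulk tissue fewer cells of a type and less RNA per cell cannot be told apart.

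Sequence upstream of 4 of these genes is shown because the genes represent the patterns described below. Nmnat2 and Sarm1 are the opposing pair of Wallerian degeneration, Bst1 was much higher in both grafts than in Unop, and Parp1 changed in the same order with smaller steps. The stretches are RefSeq sequence (build GRCr8) from the 250 bases before the annotated start, cut back to the bases outside the RefSeq gene, printed 5′ to 3′ on the gene's strand with CG dinucleotides in capitals. They are Nmnat2 at chr13:67655557-67655793 (plus strand), Sarm1 at chr10:63890873-63891122 (minus strand), Bst1 at chr14:71482672-71482897 (minus strand) and Parp1 at chr13:94839234-94839483 (plus strand).
Nmnat2: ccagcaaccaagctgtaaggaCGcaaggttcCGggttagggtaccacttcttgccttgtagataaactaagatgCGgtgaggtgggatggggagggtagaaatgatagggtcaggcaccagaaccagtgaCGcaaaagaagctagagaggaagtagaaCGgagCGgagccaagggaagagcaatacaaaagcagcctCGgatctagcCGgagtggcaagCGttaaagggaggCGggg
Sarm1: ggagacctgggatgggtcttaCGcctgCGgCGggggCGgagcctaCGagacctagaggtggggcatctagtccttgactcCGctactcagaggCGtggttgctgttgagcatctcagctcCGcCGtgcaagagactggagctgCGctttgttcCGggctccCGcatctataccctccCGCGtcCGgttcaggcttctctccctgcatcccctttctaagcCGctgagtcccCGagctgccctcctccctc
Bst1: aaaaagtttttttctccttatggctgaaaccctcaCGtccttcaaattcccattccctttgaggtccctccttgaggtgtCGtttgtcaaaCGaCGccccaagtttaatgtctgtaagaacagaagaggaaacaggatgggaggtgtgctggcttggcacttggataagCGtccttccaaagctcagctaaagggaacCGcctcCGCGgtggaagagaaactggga
Parp1: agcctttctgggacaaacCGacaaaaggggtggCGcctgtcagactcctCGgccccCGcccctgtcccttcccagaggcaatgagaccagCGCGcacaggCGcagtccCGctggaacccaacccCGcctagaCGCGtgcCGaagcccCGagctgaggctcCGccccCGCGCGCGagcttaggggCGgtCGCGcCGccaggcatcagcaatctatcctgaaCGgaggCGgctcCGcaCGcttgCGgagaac
Of the 10 genes, 8 have an entry in the RefSeq promoter table, and Nampt and Naprt have none. Across 33469 promoters, the median 250-base window held 5 CG dinucleotides. Parp1 held 27, Nmnat1 held 26, Sarm1 and Nmrk1 held 17 each, Nmnat3 held 16, Nmnat2 held 12, Bst1 held 8 and Cd38 held 4. These counts are of the full 250-base windows, and the shorter Nmnat2 stretch printed above holds 10. The Cd38 and Nmnat3 windows lie wholly inside the outer limits of their RefSeq genes and are not printed. Each window was searched on both strands for 3 motifs, the GAS element TTCNNNGAA (in 7.67% of all promoter windows), the interferon-stimulated element (GAAA, any 2 bases, GAAA; in 3.41%) and a kappaB-type element (GGG, any 2 bases, TTTCC; in 1.30%), and none of the 8 windows held those letters.

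Nampt, the rate-limiting enzyme of NAD salvage, was high in NC, while its levels in PEG and Unop lay close to each other. Its normalized read counts were 3328, 2774 and 2547 in PEG, 18921, 16545 and 19572 in NC, and 4003 and 3199 in Unop. All 3 NC libraries lay far above the other 5, and the PEG and Unop values overlapped. Nampt (ENSRNOG00000009754) averaged 2883 ± 402 (SD, n = 3) in PEG, 18346 ± 1593 (SD, n = 3) in NC and 3601 ± 568 (SD, n = 2) in Unop.

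On the log2 scale, Nampt in PEG lay 2.67 below NC (log2 fold change -2.67, SE 0.13, 95% interval -2.98 to -2.37), which is 6.39-fold lower. NC lay above Unop by a log2 fold change of 2.35 (95% interval 2.02 to 2.69), or 5.11-fold. Between PEG and Unop the log2 fold change was -0.32 (95% interval -0.66 to 0.02, limma adjusted p = 0.0935), so the order of the 2 lower groups was not resolved. Without PEG replicate 1 that difference was -0.43 with an adjusted p = 0.0410, and the alternatives gave 0.0410 to 0.473. The T cell markers and the interferon gamma response genes (Irf1, Cxcl9, Cxcl10 and Gbp2, 115940 to 206752 in NC and 19575 to 31205 in PEG) were also highest in the 3 NC libraries, and their part in the Nampt difference was not tested.

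**Figure D1:**
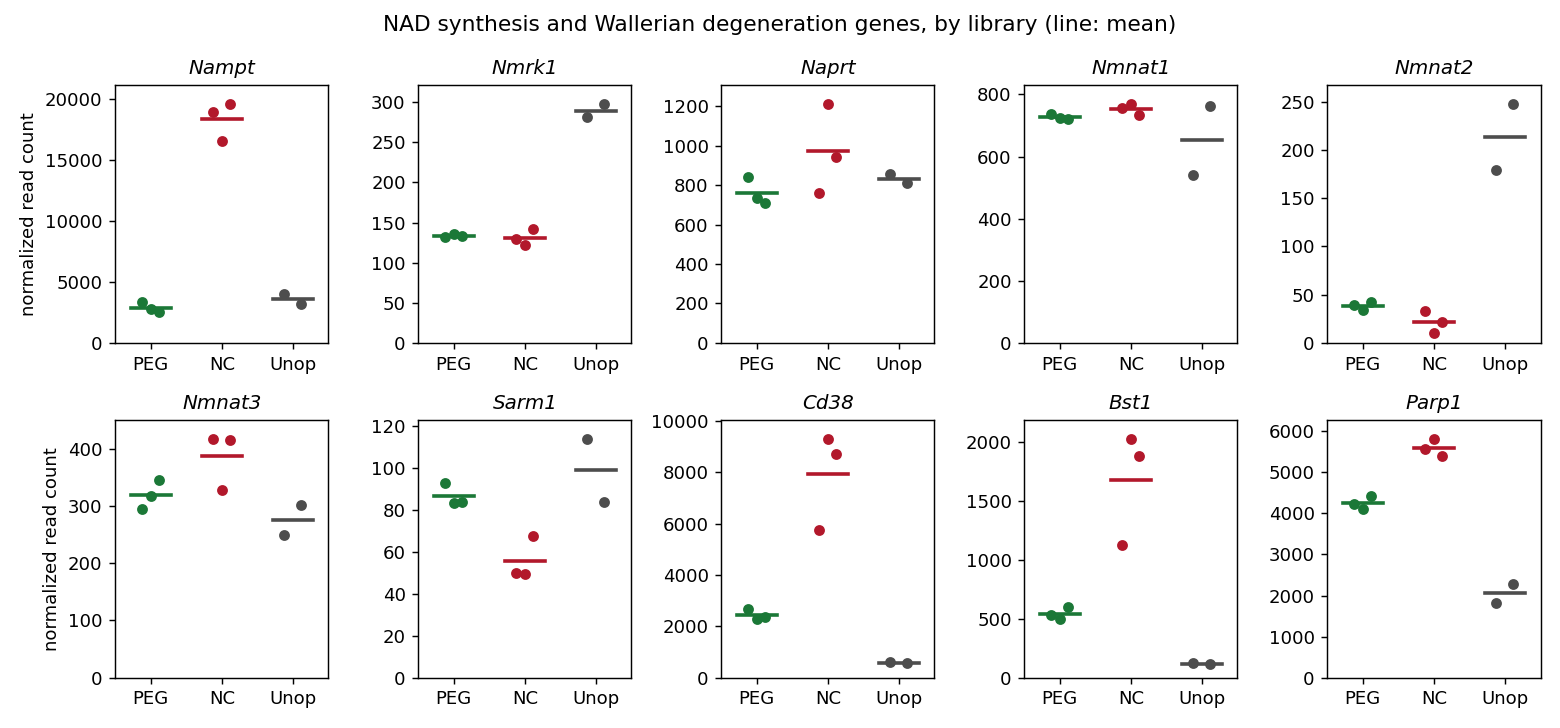
Normalized read count (vertical axis, from 0, a separate scale for each gene) of each of the 10 genes in the 3 PEG, 3 NC and 2 Unop libraries, with points for libraries and a line for the group mean. The NC points of Nampt sit between 16545 and 19572, far above the others, while Nmrk1 and Nmnat2 are highest in Unop and Cd38, Bst1 and Parp1 step up from Unop to PEG to NC.

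Nmrk1 (ENSRNOG00000012665), the kinase that makes nicotinamide mononucleotide from nicotinamide riboside, was lower in both grafts than in unoperated nerve. Its counts were 132, 136 and 133 in PEG, 130, 122 and 142 in NC, and 281 and 298 in Unop. The 6 graft libraries fell within a narrow band well under the Unop pair. The log2 fold change against Unop was -1.11 (SE 0.16, adjusted p = 0.000428) in PEG, 2.16-fold lower, and -1.14 (SE 0.16, adjusted p = 0.000277) in NC. PEG and NC differed by a log2 fold change of 0.03 (95% interval -0.29 to 0.35, adjusted p = 0.897).

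Naprt (ENSRNOG00000007939) starts the Preiss-Handler route, which makes NAD from nicotinic acid. Its counts were 843, 735 and 707 in PEG, 760, 1211 and 944 in NC, and 856 and 809 in Unop, and the groups overlapped. None of the 3 comparisons of Naprt passed the threshold of an adjusted p under 0.05, with a log2 fold change of -0.33 (95% interval -0.71 to 0.05, adjusted p = 0.167) in PEG against NC. It was -0.49 with an adjusted p = 0.0355 without NC replicate 1, in a range of 0.0355 to 0.440 over the alternatives.

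The 3 Nmnat enzymes did not behave alike. Nmnat2 (ENSRNOG00000027697), the axonal enzyme, gave 179 and 248 in Unop, 38.9, 33.7 and 42.2 in PEG, and 33.1, 10.8 and 22.2 in NC. Both grafts lay far under unoperated nerve, and every PEG value was above every NC value, though only narrowly so for NC replicate 1. Against Unop, Nmnat2 was lower, with a log2 fold change of -2.44 (SE 0.43, adjusted p = 0.00147) in PEG and -3.33 (SE 0.43, adjusted p = 0.000200) in NC, which are 5.41-fold and 10.1-fold. Between the 2 graft groups the log2 fold change was 0.90 (95% interval 0.01 to 1.78, adjusted p = 0.116), which did not pass. Without NC replicate 1 it was 1.24 with an adjusted p = 0.0365, in a range of 0.0365 to 0.270 over the alternatives.

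These Nmnat2 counts are low. The Schwann cell markers Sox10 and S100b and the neuron markers Snap25, Syt1 and Nefl were also highest in Unop, while Rbfox3 overlapped between the groups. In the grafts Snap25 and Syt1 were near the floor. Snap25 had 1, 2 and 2 reads in PEG and 15, 3 and 2 in NC. PEG replicates 2 and 3 and NC replicate 3 each held 2 reads, so their Snap25 order comes from scaling alone. Syt1 had 9, 14 and 11 reads in PEG and 7, 1 and 4 in NC. Neither gene passed in PEG against NC (limma adjusted p = 0.170 for Snap25 and 0.0651 for Syt1), and Nefl overlapped. The neuron markers (Rbfox3, Snap25, Syt1 and Nefl) summed to 605 to 643 in Unop, 72.3 to 250 in PEG and 39.8 to 107 in NC, with Rbfox3 at 0 in at least 1 library, and their part in the result was not tested.

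Nmnat1 (ENSRNOG00000015962), the nuclear enzyme, stayed within a narrow range of 722 to 739 in PEG and 733 to 769 in NC, beside 542 and 763 in Unop. No Nmnat1 comparison passed, with log2 fold changes of -0.05 (95% interval -0.34 to 0.24, adjusted p = 0.807) in PEG against NC, 0.18 (adjusted p = 0.312) in PEG against Unop and 0.23 (adjusted p = 0.191) in NC against Unop. The Unop pair decided the last 2 values. Without Unop replicate 2, the comparisons of Nmnat1 with Unop gave 0.43 (adjusted p = 0.0142) for PEG and 0.47 (adjusted p = 0.00773) for NC, and without Unop replicate 1 they gave -0.067 and -0.019. Over all alternatives the adjusted p ranged from 0.0142 to 0.622 for PEG and from 0.00773 to 0.889 for NC.

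Nmnat3 (ENSRNOG00000013585), the mitochondrial enzyme, gave 294, 318 and 345 in PEG, 417, 327 and 416 in NC, and 249 and 301 in Unop. NC lay above Unop, and PEG overlapped both. NC against Unop was the only Nmnat3 comparison that passed (log2 fold change 0.49, SE 0.17, adjusted p = 0.0303). That call was lost with only the 2 groups in the fit (adjusted p = 0.0698) and without NC replicate 1 (adjusted p = 0.0769), NC replicate 3 (adjusted p = 0.0849) or Unop replicate 1 (0.35, adjusted p = 0.168), in a range of 0.0126 to 0.168 over the alternatives. PEG against NC gave -0.27 (adjusted p = 0.203) and PEG against Unop 0.22 (adjusted p = 0.295).

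Sarm1 (ENSRNOG00000010244), the executioner of Wallerian degeneration, was lowest in NC. Its counts were 92.7, 83.2 and 83.5 in PEG, 50.04, 49.5 and 67.5 in NC, and 114 and 83.8 in Unop. All NC values lay under all others, and PEG and Unop overlapped. Sarm1 averaged 86.5 ± 5.40 (SD, n = 3) in PEG, 55.7 ± 10.3 (SD, n = 3) in NC and 98.8 ± 21.2 (SD, n = 2) in Unop.

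NC lay under Unop by a Sarm1 log2 fold change of -0.81 (SE 0.24, adjusted p = 0.0171), which did not pass with only the 2 groups in the fit (adjusted p = 0.0525) or without Unop replicate 1 (-0.60, adjusted p = 0.111), in a range of 0.0128 to 0.111. PEG against NC gave 0.64 (95% interval 0.14 to 1.14, adjusted p = 0.0575), just short of the threshold, and 0.78 (adjusted p = 0.0476) without NC replicate 3, in a range of 0.0476 to 0.155. PEG against Unop gave -0.18 (95% interval -0.73 to 0.38, adjusted p = 0.559).

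Set against each other within a library, the Nmnat2 and Sarm1 transcripts gave ratios of 1.58 and 2.96 in Unop. Both were measured in bulk RNA of the tissue, so the ratio does not measure the enzymes inside axons. The ratio of Nmnat2 to Sarm1 was 0.420, 0.404 and 0.506 in PEG and 0.661, 0.217 and 0.329 in NC. The grafts lay under unoperated nerve in all 6 libraries, and PEG and NC overlapped. A ratio of counts is not corrected for the lengths of the genes, so only its order between libraries can be read.

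Cd38 (ENSRNOG00000003069) and Bst1 (ENSRNOG00000003064), the surface hydrolases, rose from Unop to PEG and again from PEG to NC. Cd38 counts were 596 and 567 in Unop, 2692, 2289 and 2373 in PEG, and 5766, 9303 and 8701 in NC. Bst1 counts were 124 and 115 in Unop, 527, 495 and 598 in PEG, and 1123, 2025 and 1877 in NC. For both genes the 3 groups were fully separate, with NC replicate 1 the lowest of its group each time.

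In PEG against NC, the log2 fold change was -1.67 (95% interval -2.06 to -1.27, adjusted p = 0.000699) for Cd38, or 3.17-fold lower. That of Bst1 was -1.59 (95% interval -2.08 to -1.10, adjusted p = 0.00169), or 3.01-fold lower. Against Unop, Cd38 was 4.20-fold higher in PEG (log2 fold change 2.07, SE 0.19, adjusted p = 4.25e-05) and 13.3-fold higher in NC (3.74, SE 0.19, adjusted p = 1.69e-06). Bst1 was 4.47-fold higher in PEG (2.16, SE 0.24, adjusted p = 0.000112) and 13.5-fold higher in NC (3.75, SE 0.24, adjusted p = 4.06e-06). The summed macrophage markers and the T cell markers given above stood in the same order of groups, and their part in the result was not tested. Of the 6 macrophage markers, 3 were lower in every PEG library than in every NC library, and Itgam and Mrc1 overlapped. Over all tested genes, 23.3% were lower in PEG in this way and 25.6% were higher. Cd68 went the other way, with 20030 to 22451 in PEG and 14060 to 18968 in NC.

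Cd38 and Bst1 are neighbours in the rat genome. In RefSeq GRCr8 both lie on the minus strand of chromosome 14, their starts are 58.142 kb apart, and 0 protein-coding genes lie between them. The ratio of Cd38 to Bst1 stayed between 3.97 and 5.13 over all 8 libraries, while each gene spanned more than an order of magnitude. It was 5.10, 4.62 and 3.97 in PEG, 5.13, 4.60 and 4.64 in NC, and 4.78 and 4.92 in Unop, with the groups overlapping.

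**Figure D2:**
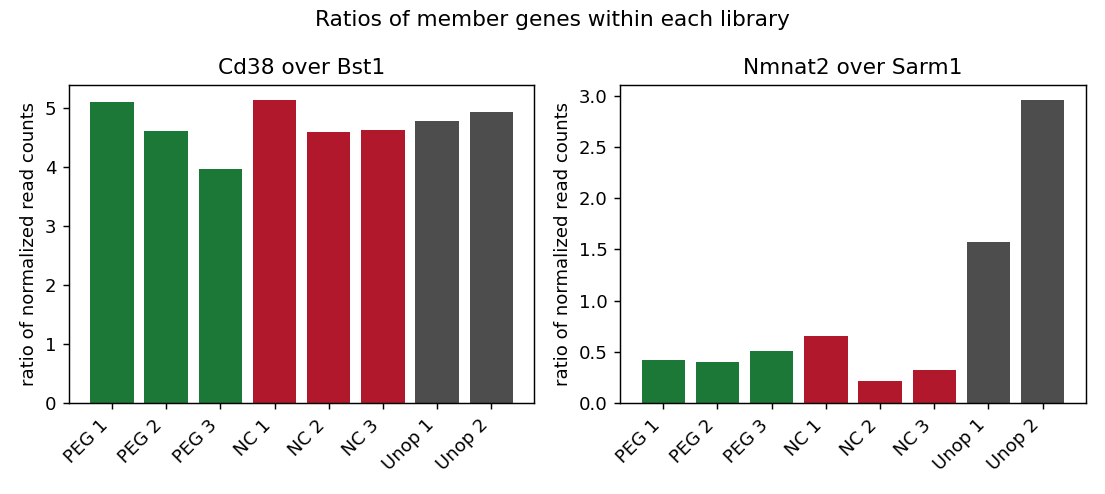
Ratio of normalized read counts of Cd38 to Bst1 (left) and of Nmnat2 to Sarm1 (right) in each of the 8 libraries, as bars from 0. The Cd38 to Bst1 bars stay between 3.97 and 5.13 in every group, whereas the Nmnat2 to Sarm1 bars are highest in the Unop pair at 1.58 and 2.96.

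Parp1 (ENSRNOG00000003084), the DNA damage sensor and a large consumer of NAD, followed the same order with smaller steps. Its counts were 1830 and 2283 in Unop, 4232, 4102 and 4434 in PEG, and 5558, 5818 and 5405 in NC, and no groups overlapped. Parp1 was 2.08-fold higher in PEG than in Unop (log2 fold change 1.06, SE 0.11, adjusted p = 6.87e-05) and 2.73-fold higher in NC than in Unop (1.45, SE 0.11, adjusted p = 8.56e-06). In PEG it was lower than in NC (-0.39, 95% interval -0.61 to -0.18, adjusted p = 0.0173). That last call was lost without PEG replicate 1 (-0.39, adjusted p = 0.0536) or PEG replicate 2 (-0.37, adjusted p = 0.0676), in a range of 0.00214 to 0.0676 over the alternatives.

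Of the 9 genes other than Nampt, 3 were called lower in PEG than in NC (Cd38, Bst1 and Parp1) and 0 higher, where limma called 28.9% of all tested genes, 13.9% lower and 15.0% higher. At an unadjusted p under 0.05, 2 were higher in PEG than in NC (Nmnat2 and Sarm1), beside 21.3% of all tested genes, and edgeR and DESeq2 on the recovered reads both called 0 higher. In PEG against Unop, 5 of the 10 genes were called, 3 of them higher and 2 lower, beside 57.7% of all genes (29.1% higher and 28.6% lower). In NC against Unop, 7 of the 9 genes other than Nampt were called, 4 higher and 3 lower, beside 64.5% of all genes (32.2% higher and 32.3% lower). With Nampt included, the median log2 fold change of the 10 genes was -0.30, 0.02 and 0.36 in the 3 comparisons, with a median near 0 over all tested genes in each. The groups did not overlap for 6 of the 10 genes in PEG against NC, 2 higher and 4 lower in PEG, where 48.9% of all tested genes did not overlap (25.6% higher and 23.3% lower). They did not overlap for 5 genes in PEG against Unop, 3 higher and 2 lower, beside 74.5% of all genes (37.3% and 37.2%), and for 8 in NC against Unop, 5 higher and 3 lower, beside 74.6% (37.2% and 37.4%). Since the genes were chosen with these values known, nothing is read from the counts, and the comparisons with Unop share its 2 libraries.

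**Figure D3:**
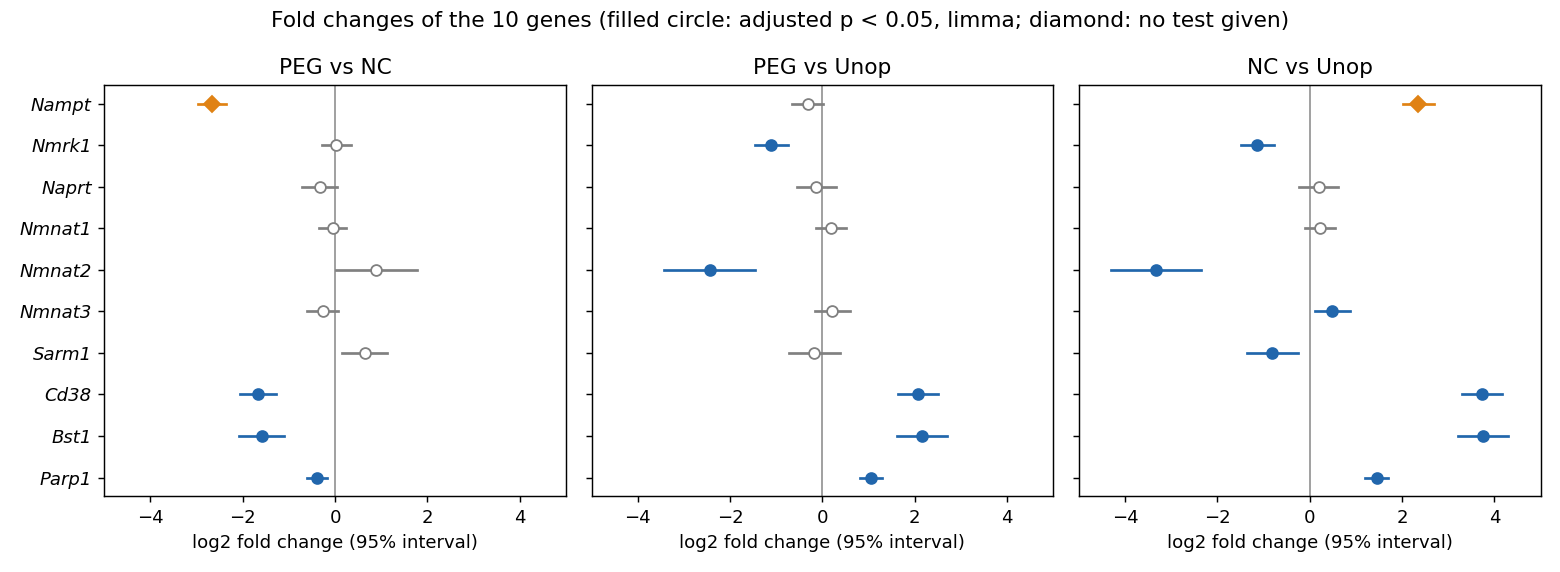
Log2 fold change (horizontal axis) of each of the 10 genes in PEG against NC, PEG against Unop and NC against Unop, with 95% intervals. Filled circles passed an adjusted p under 0.05 in limma, open circles did not, and diamonds mark Nampt in comparisons with NC, for which no test is given. Cd38, Bst1 and Parp1 lie left of 0 in the first panel and right of 0 in the other 2.

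The wider NAD pathway was followed in a list of 43 further genes, of which 39 were tested. Sirt1 and Parp4 were not analysed here, Tnks2 stood on 2 rows and was left out, and Acmsd was under the filter. In PEG against NC, 12 of the 39 fell and 4 rose, 23 did not pass, and the median log2 fold change was -0.20, where 13.9% of all tested genes fell and 15.0% rose. In PEG against Unop 15 were higher and 9 lower (29.1% and 28.6% of all tested genes), and in NC against Unop 18 were higher and 11 lower (32.2% and 32.3%).

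Of the 8 tested genes that build NAD from tryptophan, 3 fell in PEG against NC and 1 rose, beside 13.9% and 15.0% of all tested genes. Ido1, the interferon-inducible enzyme that opens this route, gave 34.3, 3.74 and 7.50 in PEG, 800, 886 and 657 in NC, and 2 reads and 0 reads in the Unop pair. Every NC library was far above the rest (log2 fold change in PEG against NC -6.11). Ido1 passed the filter on low values only through its NC libraries, so no p-value is given for it here. Its call is included in the counts of genes that fell and adds no support to them. Kynu, which cleaves kynurenine, fell by 1.28 on the log2 scale (adjusted p = 0.0170) and Ido2, a relative of Ido1, fell by 1.39 (adjusted p = 0.0210). Qprt, which makes the nicotinic acid mononucleotide at the end of the route, went the other way, with 3509, 4446 and 3201 in PEG, 2133, 2003 and 1751 in NC, and 1160 and 800 in Unop. No groups of Qprt overlapped, and PEG was higher than NC by 0.91 (adjusted p = 0.00596).

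Among the other synthetic steps, Pnp, which releases nicotinamide from its riboside, fell and the rest of the salvage genes did not pass. Pnp counts were 10958, 11062 and 10702 in PEG, 22391, 23762 and 22768 in NC, and 7888 and 5550 in Unop, with a log2 fold change of -1.07 (adjusted p = 0.00113) in PEG against NC. Nadsyn1, which completes NAD on the nicotinic acid route, gave -0.23 (adjusted p = 0.239), and Nt5e, a surface nucleotidase, 0.32 (adjusted p = 0.341). Nmrk2, the muscle relative of Nmrk1, gave 1.85, 3.74 and 2.81 in PEG, 416, 4.30 and 96.5 in NC, and 9.66 and 2.501 in Unop. Its 2 high NC libraries are the ones with the highest muscle markers, and Nmrk2 passed the filter only through them. The log2 fold change of -4.01 in PEG against NC did not pass (adjusted p = 0.0585).

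Nadk, which turns NAD into NADP, fell in PEG against NC (-0.59, adjusted p = 0.00227), from 6895, 7405 and 6994 in NC to 4455, 4547 and 5190 in PEG, beside 4917 and 4593 in Unop. Nnmt, which removes nicotinamide by methylation, gave 0.25 (adjusted p = 0.182). Enpp1, a surface enzyme that splits NAD outside the cell, was higher in PEG than in NC (1.30, adjusted p = 0.00421), with 1661, 2315 and 1868 in PEG and 654, 658 and 1115 in NC. Enpp1 was highest in Unop, at 2929 and 3576, so PEG stood between the other 2 groups.

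The enzymes that spend NAD are given by family. Of 6 tested sirtuins, which are NAD-dependent deacylases, Sirt7 alone passed in PEG against NC (-0.74, adjusted p = 0.00251). That is 16.7% of them, beside 28.9% of all tested genes. Sirt2 gave 0.04 (adjusted p = 0.779) there and was lower in both grafts than in Unop, with -1.24 (adjusted p = 3.32e-05) in PEG and -1.28 (adjusted p = 1.87e-05) in NC. Of 11 tested ADP-ribosyl transferases other than Parp1, 6 fell in PEG against NC and 2 rose, beside 13.9% and 15.0% of all tested genes. Parp14 had the lowest log2 fold change of them (-1.75, adjusted p = 0.000624), with 3967, 4737 and 3113 in PEG, 15767, 11773 and 11975 in NC, and 1405 and 1305 in Unop. Parp9 followed at -1.40 (adjusted p = 0.00131), then Parp10 at -1.37 (adjusted p = 0.000338) and Parp8 at -1.37 (adjusted p = 0.000720), and all 4 were also higher in PEG than in Unop. Parp9, Parp10 and Parp14 are known as interferon-induced genes. Parp16 (0.60, adjusted p = 0.0196) and Tnks (0.49, adjusted p = 0.0217) were higher in PEG than in NC, and Parp2, the close relative of Parp1 in DNA repair, gave -0.05 (adjusted p = 0.714).

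**Figure D4:**
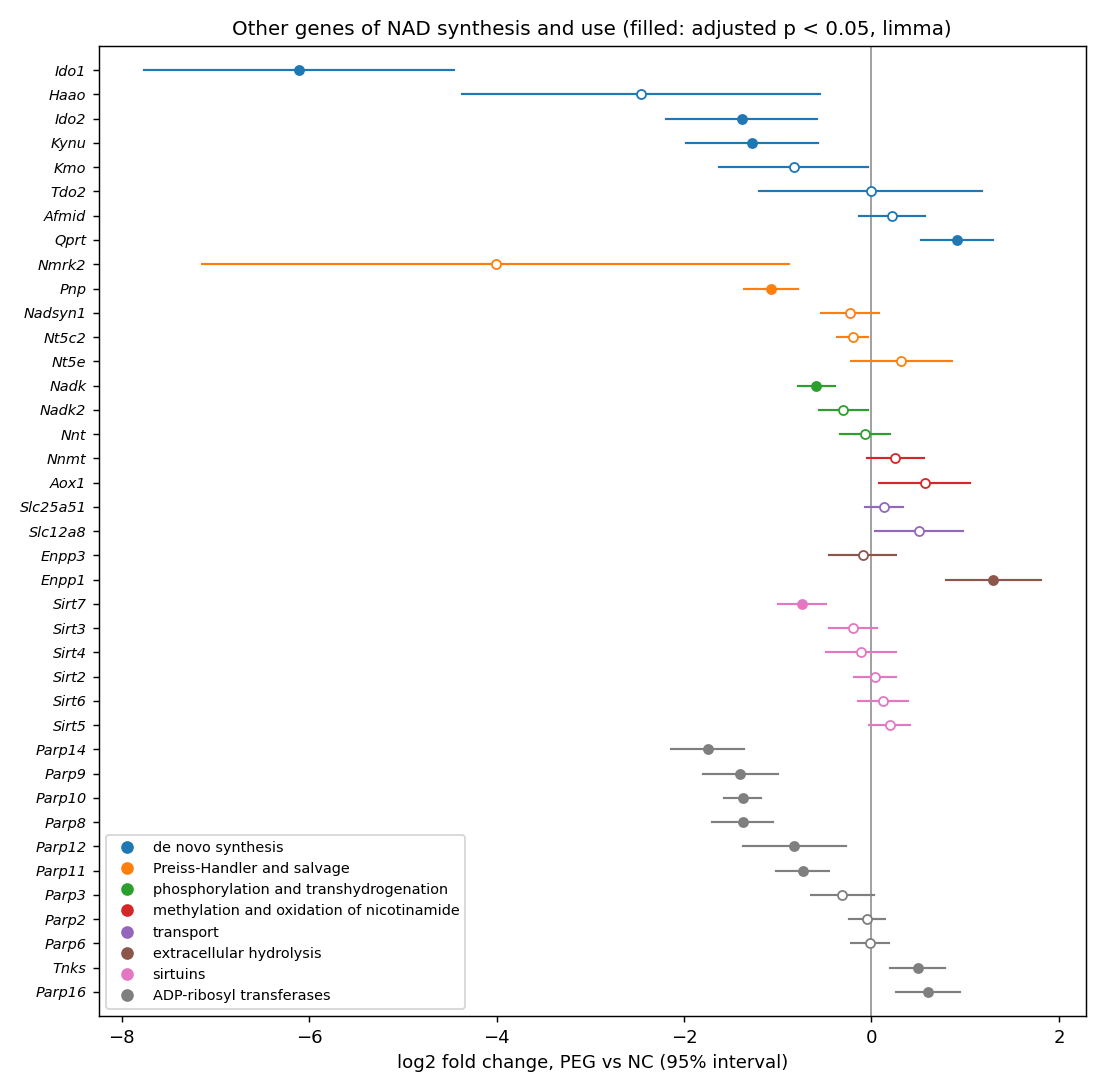
Log2 fold change in PEG against NC (horizontal axis, with 95% intervals) of the 39 further NAD genes tested, grouped and coloured by step of the pathway. Filled points passed an adjusted p under 0.05 in limma, with Ido1 at -6.11 and Parp14 at -1.75 on the left and Enpp1 at 1.30 and Qprt at 0.91 on the right. Ido1 passed the filter on low values only through its NC libraries.

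The other parts of the axon degeneration machinery were followed in a list of 24 genes, of which 23 were tested and Ticam1 was not analysed here. In PEG against NC 4 rose and 1 fell, and the median log2 fold change was 0.03, so that 21.7% of the list was called, beside 28.9% of all tested genes. That count of 5 was 3 without PEG replicate 1, PEG replicate 2, NC replicate 2 or NC replicate 3 in turn, and in each of those settings no gene of the list was called lower, Mycbp2 included. The share of all tested genes called in those settings is not given here, so the fall is not read as particular to this list. Against Unop, 10 were higher and 6 lower in PEG, where 57.7% of all tested genes were called, and 10 were higher and 7 lower in NC, where 64.5% were called.

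Mycbp2, the ubiquitin ligase that removes Nmnat2, gave 3429, 3173 and 3850 in PEG, 4459, 4647 and 4967 in NC, and 1994 and 2532 in Unop. PEG was lower than NC (-0.43, adjusted p = 0.0240) and higher than Unop (0.63, adjusted p = 0.00305). Map3k12, the DLK kinase of the axon injury signal, gave -0.02 (95% interval -0.28 to 0.24, adjusted p = 0.907) in PEG against NC. Ube4b, the ligase whose fragment is fused to Nmnat1 in the slow Wallerian degeneration mouse, gave 0.05 (adjusted p = 0.721) in the same comparison.

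Stmn2, a short-lived axon maintenance protein cleared by the same kinase pathway as Nmnat2, gave 628, 385 and 603 in PEG, 237, 435 and 498 in NC, and 2513 and 2045 in Unop. Both grafts lay far under unoperated nerve (-2.10, adjusted p = 0.000789 in PEG, and -2.61, adjusted p = 0.000179 in NC), and PEG against NC gave 0.50 (adjusted p = 0.234). Stmn1, a related tubulin-binding protein, was higher in PEG than in NC (0.83, adjusted p = 0.00313) and lower in both than in Unop. The injury transcription factors Atf3 (1.42, adjusted p = 0.00565) and Jun (0.57, adjusted p = 0.0147) were higher in PEG than in NC. Atf3 counts were 5887, 9031 and 4333 in PEG, 2018, 2977 and 2010 in NC, and 855 and 795 in Unop, with no groups overlapping. Capn2, a calcium-activated protease, was also higher in PEG than in NC (0.36, adjusted p = 0.0432).

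The genes most like a given member were found among 13437 genes by the root mean square difference of their centred log2 values over the 8 libraries, where 0 is an identical pattern. For Nampt they were Vcam1 (0.300), an adhesion molecule of activated endothelium, Cd274 (0.325), which encodes the checkpoint ligand PD-L1, and Stat4 (0.338), a transcription factor of cytokine signalling. For Cd38 the closest of all was Bst1 (0.109), ahead of Pim1 (0.140) and Lilrc2 (0.173). For Sarm1 they were Vstm4 (0.109), Tfpi (0.113) and Vegfb (0.120). For Nmnat2 they were Sh3tc2 (0.173), which is known from Schwann cells, Filip1 (0.183) and Gal3st1 (0.216), the sulfotransferase that makes the myelin lipid sulfatide. Sh3tc2 counts were 588 in NC replicate 1 against 183 and 274 in the other NC libraries, and 2402 and 3861 in Unop. NC replicate 1 was also the highest NC library of Nmnat2. Sh3tc2 was picked for its likeness to Nmnat2 over these same libraries, so this is no separate evidence.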

How the data were processed

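RNA-seq libraries (poly-A selected, stranded) of 3 PEG, 3 NC and 2 Unop nerves were examined, with 32472925 to 39959620 reads on genes each. The authors aligned reads with TopHat2 and counted them per gene with HTSeq, and the submitters' processing notes name the build Rnor 6.0. The deposited signal values are those read counts scaled between libraries with DESeq2 by its size factors (median of ratios). Dividing the values of each library by 1 constant gave whole reads for 100% of values within 0.001, with size factors of 0.800 to 1.12. The files of the 8 single samples held the same values as the series table. The authors' columns of log2 fold changes and p-values were not used.

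Tests used limma 3.58.1 (trend) on log2(normalized count + 1) over all 8 libraries, in a group-means model, with Benjamini-Hochberg adjustment over 16478 genes (10 or more normalized counts in 2 or more libraries) and a call at an adjusted p under 0.05. Fold changes of low genes are understated on this scale. The scripts were tested on simulated data. Alternatives were edgeR 4.0.16 and DESeq2 1.42.0 on the recovered reads, TMM rescaling, a pseudocount of 8, no filter, a filter of 50, a fit of only the 2 groups compared, the replicate number as a block, and each library left out in turn. Promoter stretches came from RefSeq GRCr8, a different build from that of the counts, so no coordinates were joined to them.

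The members and lists were chosen with earlier results of these data known. Named from the pathway lists were preset genes whatever their values and, in each direction of PEG against NC, up to 5 called genes with the smallest adjusted p. Ido2 and Sirt7, and Sh3tc2 for its single libraries, were singled out after their values were seen. The most similar genes were the 3 nearest by pattern. Markers of B and plasma cells (102 to 193 in PEG, 528 to 928 in NC and 47.5 to 50.4 in Unop, as summed normalized counts), neutrophils (696 to 1048, 1306 to 1902 and 395 to 499), fibroblasts (254108 to 373905, 144413 to 208890 and 243933 to 330801), endothelium (7255 to 9918, 7479 to 9137 and 11863 to 12069) and adipocytes (273 to 364, 512 to 1367 and 28768 to 53066) were summed likewise. Samples of a group were separate animals. The summed level of the Schwann cell markers is not reported here.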

Additional observations from a re-analysis of the deposited data

Results flagged for a closer look

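The Nampt values of the 2 graft groups lay on opposite sides of the mean of the unoperated nerves. Its log2 fold change against Unop was -0.32 in PEG and 2.35 in NC, every PEG library lay below the Unop mean of 3601 normalized read counts, and every NC library lay above it. Both comparisons share the 2 Unop libraries, and PEG replicate 1 (3328) lay above Unop replicate 2 (3199), so a difference between PEG and Unop was not resolved (95% interval -0.66 to 0.02, limma adjusted p = 0.0935). The difference between the 2 effects is the PEG against NC comparison itself, a log2 fold change of -2.67 (95% interval -2.98 to -2.37), for which no p-value is given. Groups of 3 or fewer libraries were not searched for single libraries that stand apart.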

How the results depend on the processing

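Of the recomputed log2 fold changes of the 10 genes, 381 kept their direction and their side of the threshold and 4 reversed. Those 4 were Nmrk1 in PEG against NC without NC replicate 2 (-0.022, with a range of -0.022 to 0.088 over the libraries left out), Nmnat1 without Unop replicate 1 in PEG against Unop (-0.067, range -0.067 to 0.43) and in NC against Unop (-0.019, range -0.019 to 0.47), and Sarm1 in PEG against Unop without Unop replicate 1 (0.043, range -0.39 to 0.043). None of the 4 was called in the full fit. Another 6 values newly passed the threshold and 9 no longer did. With libraries left out in turn, the count of axon degeneration genes called in PEG against NC ranged from 3 to 5. The share of all tested genes called in those settings is not given either. The groups share replicate numbers, but these were not taken to pair the samples, since the correlation of deviations was 0.108, 0.109 and -0.050 for numbers 1, 2 and 3 of PEG and NC. With Unop, which has only numbers 1 and 2, it was 0.154 and 0.136 for PEG and 0.152 and 0.157 for NC. With the replicate number as a block, the call lost among the 10 was Nmnat3 in NC against Unop (0.43, adjusted p = 0.0850). The other NAD genes called with the block were 17, 23 and 28 in PEG against NC, PEG against Unop and NC against Unop. Without the block they were 16, 24 and 29. The axon degeneration genes called were 5, 16 and 17, with or without the block. The share of all tested genes called with the block is not given here, so nothing is read from these counts. With 2 Unop libraries, 1 library can decide a comparison with Unop, and Nmnat2 and Sarm1, with 10.8 to 67.5 normalized counts in NC, are measured less precisely than the abundant genes. The cause of the changes was not tested.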
